A study of Homo sapiens with 12 samples.

Results

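The comparison set 3 libraries of the medium dose, 100 µg/mL, against 3 libraries of the low dose, 20 µg/mL, of a water extract of Aconitum carmichaeli Debeaux (ACD) in SW1783 cells. Members were chosen by label, so that 6 of the 12 RNA-seq samples entered the comparison, and the 3 vehicle and 3 high dose (500 µg/mL) samples served to estimate the spread and to place the step between its neighbours. SW1783 is a human astrocytoma line, and all groups were harvested after 24 h. The vehicle was PBS with 2% DMSO; the diluent of the extract at the lower doses is not stated in the sources used here. The titles and treatment labels name ACD, while the treatment protocol attached to the same samples describes another herb, Poria cocos, so the identity of the extract rests on the titles and treatment labels. Nothing in the labels says that the 3 libraries of a dose came from separate cultures, and p-values then measure the spread between these libraries, which may be technical. The question put to the comparison was which genes moved when the concentration went from the lower to the next dose, with extract present on both sides.

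The 6 libraries held total counts between 18863863 and 23597743. Normalised counts are counts divided by the DESeq2 size factor of their library, and where 3 values are listed for a dose they stand in the order of the replicate numbers, low dose first. Genes averaging 100 normalised counts or more over the 6 libraries had a median standard error of 0.0701 for the log2 fold change, against 0.348 for genes between 10 and 100, so falls and rises among the less abundant genes were measured less firmly. Among astrocyte and glioma genes, VIM, CD44, CHI3L1, GJA1, EGFR and SOX9 were abundant, whereas GFAP, the defining intermediate filament of astrocytes, reached at most 6 counts in any library, S100B at most 5, SOX2 at most 2 and AQP4 0. The intestinal epithelial genes EPCAM, CDH1 and VIL1 reached at most 4, 2 and 2 counts. Low dose replicate 1 stood apart in 2 mitochondrial mRNAs, which are given below with and without it.

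Cells that run short of amino acids, misfold proteins in the endoplasmic reticulum (ER) or suffer mitochondrial damage phosphorylate the translation factor eIF2α. General protein synthesis then slows, while the transcription factor ATF4 is translated and switches on genes for amino acid supply, tRNA charging and stress signalling, together with its partner CHOP (gene DDIT3) and the feedback inhibitor TRIB3. ATF4 binds DNA as a dimer with C/EBP proteins at a composite site, the C/EBP-ATF response element, which joins parts of a C/EBP and an ATF site.

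The letters of that element, TGATGNAA, were looked for on both strands in the 250 bases before the start of each tested gene (RefSeq, GRCh38.p14). They were present in 140 of 10601 promoters (1.32%). Among the differentially expressed genes (DEGs) defined in the following paragraphs, they were present in 11 of 132 promoters of genes higher at the medium dose (8.33%) and in 1 of 62 promoters of genes lower there (1.61%). The 11 genes were CHAC1, KLHDC7B, ASNS, ATF3, IL20RB, ASB5, HERPUD1, AARS1, GOT1, DLGAP1-AS2 and SYNE1, and the other was SLC1A3. In 5 amino acid and stress lists described below, the letters were present in 4 of 27 promoters of DEGs (14.8%). Among list members that were not DEGs they were present in 2 of 26 (7.69%), MTHFD1L and IARS1. KLHDC7B, IL20RB and ASB5 had no adjusted p without low dose replicate 1, and DLGAP1-AS2 did not pass it there (0.0540). SYNE1 stood under 1.5-fold without low dose replicate 3 (log2 fold change 0.58). For KLHDC7B, ASB5 and DLGAP1-AS2 leaving out some other libraries also left no call. Windows of 60 bases are shown for the genes of stress signalling, ER quality control and amino acid metabolism and for SLC1A3, written 5′ to 3′ on the strand of the gene, with the matching letters in capitals. A match on the opposite strand is shown as its reverse complement.
CHAC1: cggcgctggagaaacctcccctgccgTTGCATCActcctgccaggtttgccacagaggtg
ASNS: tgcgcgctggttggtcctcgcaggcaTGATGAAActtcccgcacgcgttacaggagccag
ATF3: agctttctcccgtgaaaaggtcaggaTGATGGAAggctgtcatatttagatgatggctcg
HERPUD1: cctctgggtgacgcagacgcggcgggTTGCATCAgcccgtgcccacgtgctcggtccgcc
AARS1: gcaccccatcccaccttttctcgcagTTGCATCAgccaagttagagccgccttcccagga
GOT1: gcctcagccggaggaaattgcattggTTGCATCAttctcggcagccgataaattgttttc
SLC1A3: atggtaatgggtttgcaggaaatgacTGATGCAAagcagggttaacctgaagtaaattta
On GRCh38 these windows lie at chr15:40953236-40953295, chr7:97872443-97872502, chr1:212565190-212565249, chr16:56931940-56931999, chr16:70289660-70289719, chr10:99430789-99430848 and chr5:36596342-36596401, on the forward strand for CHAC1, ATF3, HERPUD1 and SLC1A3 and on the reverse strand for ASNS, AARS1 and GOT1. GOT1, an aspartate aminotransferase and the 1 gene of these not taken up again, averaged 784 normalised counts at the low and 1296 at the medium dose (log2 fold change 0.73, SE 0.0617, adjusted p 6.14e-30). In CHAC1, HERPUD1, AARS1 and GOT1 the capitals spell the same 8 letters, TTGCATCA. Another element, the cyclic AMP response element TGACGTCA, was present in 2.98% of all promoters, 3.03% of those of genes higher and 1.61% of those of genes lower. The antioxidant response element TGACNNNGC was present in 12.1%, 13.6% and 9.68%. The 3 searches overlap in some letters, and a match describes the sequence, not binding.

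Of 14082 tested genes, 273 were DEGs between the doses (1.94%), with an adjusted p under 0.05 in DESeq2 and a fold change over 1.5. Genes higher at the medium dose numbered 190 (1.35%) and genes lower 83 (0.589%). The libraries of the 2 doses did not overlap in 188 of the 190 and 82 of the 83. The call itself favours such separation, and its share among all tested genes was not counted. The rises were larger than the falls: their median fold was 1.81 against 1.67, 69 rises and 12 falls exceeded 2-fold, and 12 rises and 0 falls exceeded 4-fold. Without low dose replicate 1 the falls numbered 49 in place of 83 and the rises 136 in place of 190. Many of the lost genes had no adjusted p in that fit, so their loss does not show that they depended on that library. CXCL3 was 1 of them, at a log2 fold change of 2.86 there and 2.48 with all libraries. Protein-coding genes made up 170 of the rises and 74 of the falls, and lncRNAs 12 and 5. The adjusted p alone was passed by 2657 genes (18.9%), 1308 higher and 1349 lower, so most of what passed lay under 1.5-fold and was split almost evenly in direction. Every later count of list members past the adjusted p is to be read beside these numbers. As bulk RNA was measured, fewer cells of a kind and less RNA per cell cannot be told apart in any value given here.

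**Figure D1:**
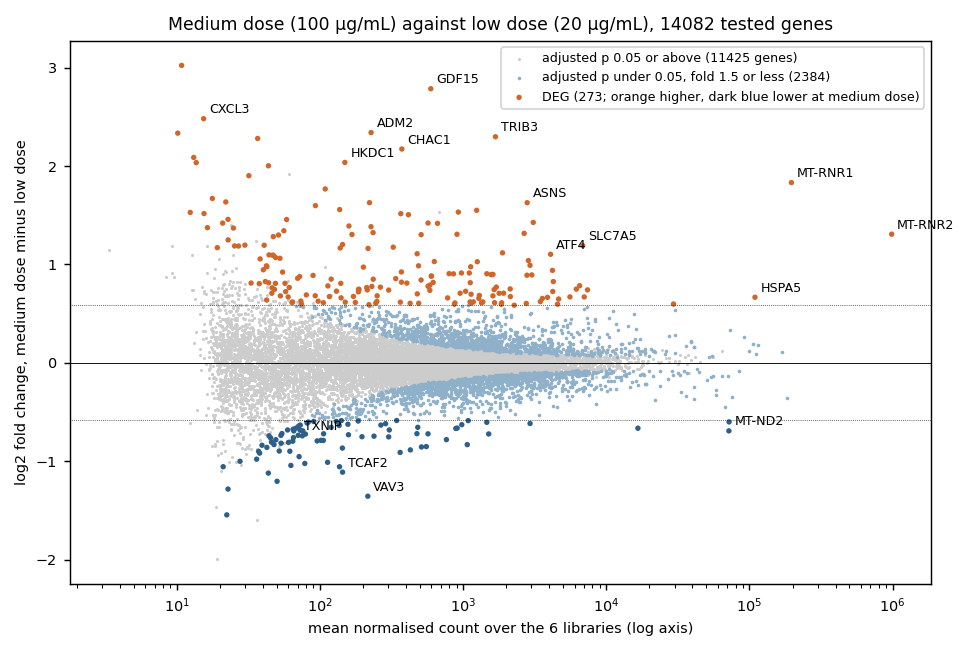
Mean normalised count over the 6 libraries (x, log axis) against log2 fold change from the low to the medium dose (y) for the 14082 tested genes, with DEGs in orange (higher) and dark blue (lower) and dotted lines at 1.5-fold. The 190 rises reach further from 0 than the 83 falls, and both mitochondrial rRNAs sit at the far right among the rises.

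Among DEGs that averaged 100 normalised counts or more and whose libraries separated fully by dose, the largest rises were in GDF15, ADM2, TRIB3, CHAC1, HKDC1, MT-RNR1, ATP2A3, CLDN1, ASNS, RAB39B, DDIT3 and SESN2. GDF15 (ENSG00000130513, chromosome 19, 18374731 to 18389176 on GRCh38, as all positions here), a secreted stress cytokine, stood at 144, 149 and 159 normalised counts in the low dose libraries and 983, 1025 and 1103 in the medium dose libraries (log2 fold change 2.79, SE 0.0831, adjusted p 2.06e-243). ADM2 (ENSG00000128165, chromosome 22, 50481543 to 50486440), a peptide hormone of the calcitonin family, stood at 61.6, 84.7 and 79.5, then 345, 389 and 404 (log2 fold change 2.34, SE 0.138, adjusted p 1.95e-62). Each medium library thus lay several-fold above every low library for both secreted factors. TRIB3 (ENSG00000101255, chromosome 20, 362835 to 397559), the pseudokinase that restrains ATF4 and AKT, went from 576, 553 and 576 to 2695, 2853 and 2833 (log2 fold change 2.30, SE 0.0525, adjusted p below the smallest number R can hold). CHAC1 (ENSG00000128965, chromosome 15, 40952962 to 40956512), which breaks down glutathione, went from 149, 113 and 143 to 617, 578 and 638 (log2 fold change 2.17, SE 0.115, adjusted p 1.18e-77). These 4 genes are known targets of the ATF4 and CHOP pathway. HKDC1 (ENSG00000156510, chromosome 10, 69220332 to 69267552), a hexokinase family member, went from 55.8, 61.2 and 58.6 to 225, 253 and 240.3 (log2 fold change 2.04, SE 0.147, adjusted p 2.41e-41). The 3 libraries of either dose lay close together relative to the distance between doses.

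ATP2A3 (ENSG00000074370, chromosome 17, 3923870 to 3964464) encodes a calcium pump of the ER membrane. It held 48.1, 46.9 and 53.4 normalised counts at the low and 154, 171 and 179 at the medium dose (log2 fold change 1.77, SE 0.177, adjusted p 1.57e-21). CLDN1 (ENSG00000163347, chromosome 3, 190305707 to 190322446), the tight junction protein claudin-1, held 93.3, 116 and 116, then 323, 337 and 343 (log2 fold change 1.63, SE 0.123, adjusted p 1.55e-37). RAB39B (ENSG00000155961, chromosome X, 155258235 to 155264491), a small GTPase of vesicle traffic, held 67.3, 71.4 and 70.1, then 196, 206 and 212 (log2 fold change 1.56, SE 0.148, adjusted p 8.63e-24). Each of the 3 was a gene of modest abundance. SESN2 (ENSG00000130766, chromosome 1, 28259518 to 28282491), a leucine sensor that restrains the growth kinase mTORC1, held 449, 471 and 506, then 1333, 1386 and 1403 (log2 fold change 1.53, SE 0.0670, adjusted p 8.97e-113). MT-RNR1, ASNS and DDIT3 are taken up with their groups.

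**Figure D2:**
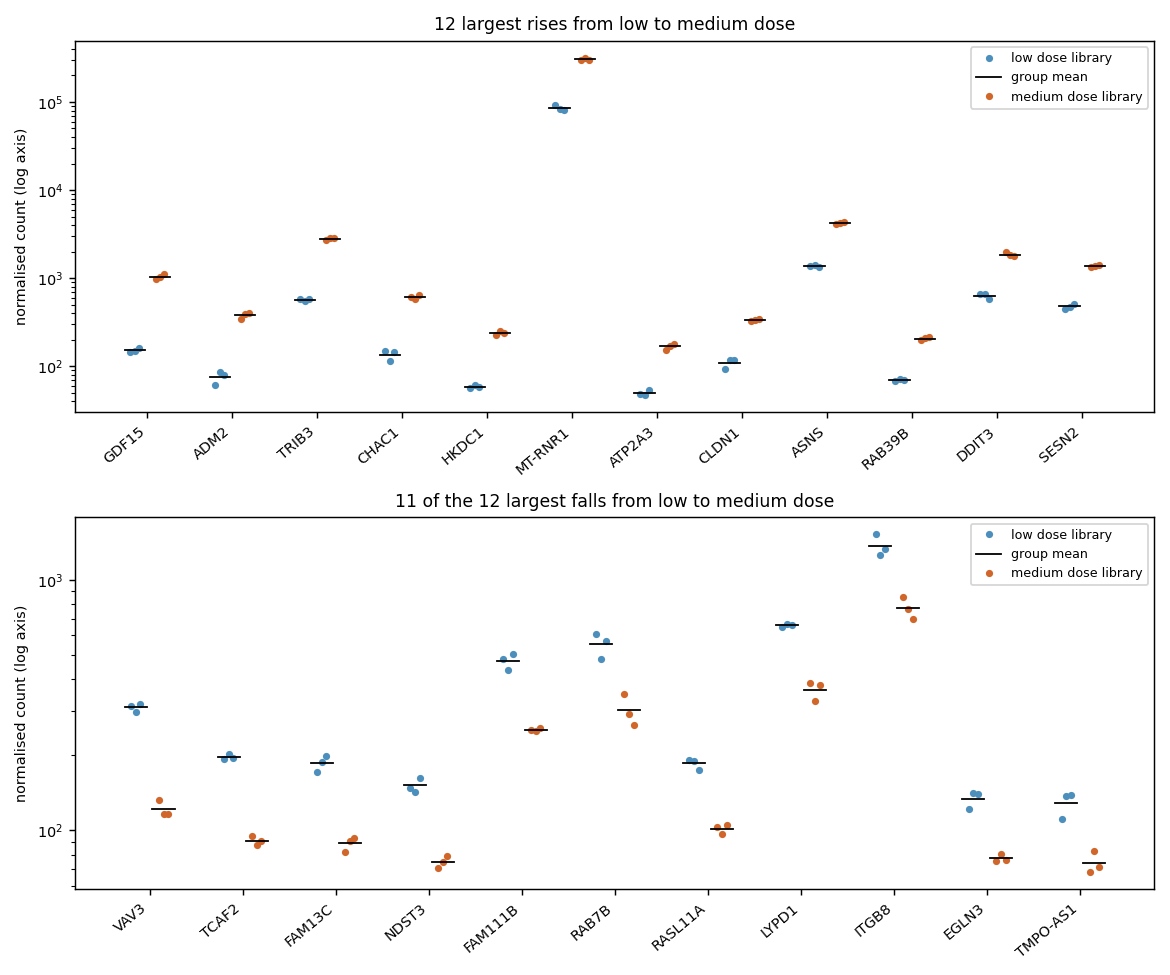
Normalised counts (y, log axis) of the 12 largest rises and 11 of the 12 largest falls in each low dose (blue) and medium dose (orange) library, with bars at the group means of n = 3. The genes were chosen for having no overlap of low and medium points and were ranked by fold change. GDF15 shows the largest distance among the rises and VAV3 among the falls.

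Most of the stress transcription factors rose. Of 9 tested members, 7 were DEGs, all higher (77.8%, against 1.35% of all tested genes), and the median log2 fold change was 1.10, against -0.00143 over all genes. ATF4, the centre of the response, went from 2543, 2584 and 2656 normalised counts to 5379.5, 5589.9 and 5744 (log2 fold change 1.10, SE 0.0370, adjusted p 1.24e-192). DDIT3, which encodes CHOP, went from 653, 655 and 586 to 1977, 1820.1 and 1760.2 (log2 fold change 1.55, SE 0.0648, adjusted p 1.21e-123); 31.6% of its exon bases lie opposite another gene, and the sources do not say whether counting used strand, so that reads of the 2 strands cannot be told apart here or in the other genes given with such a percentage. ATF3, a repressor induced by ATF4, went from 54.8, 40.8 and 42.9 to 121, 133 and 165 (log2 fold change 1.60, SE 0.170, adjusted p 4.3e-19). Within this group TRIB3 thus moved most and ATF4 itself about as much as the middle member. NUPR1 (log2 fold change 1.51), CEBPG (0.90), a C/EBP partner of ATF4, and JDP2 (0.85), an AP-1 repressor, rose as well. CEBPB, another C/EBP factor, stood at 0.31 (adjusted p 0.192), and ATF5, a relative of ATF4, at -0.07 (adjusted p 0.602).

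The list of eIF2α kinases and phosphatases, which also holds EIF4EBP1, OMA1 and DELE1, moved less. PPP1R15A, which encodes the stress-induced phosphatase subunit GADD34, averaged 1019 normalised counts at the low and 1907 at the medium dose (log2 fold change 0.91, SE 0.0501, adjusted p 1.79e-70), and EIF4EBP1, an inhibitor of cap-dependent translation, averaged 1473 and 2223 (log2 fold change 0.60, SE 0.0555, adjusted p 9.77e-25). Those were the 2 DEGs among 9 tested members (median log2 fold change 0.17), and EIF4EBP1 stood under 1.5-fold without medium dose replicate 3 (0.54). The 4 eIF2α kinases stood between -0.04 (EIF2AK3, the ER kinase PERK) and 0.08 (EIF2AK4, the amino acid sensor GCN2), and none passed the adjusted p. OMA1 (0.28, adjusted p 0.0165) and DELE1 (0.24, adjusted p 0.000781), which relay mitochondrial stress to eIF2α, passed it under 1.5-fold.

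Genes of amino acid synthesis were mostly higher at the medium dose. Of 15 tested genes for serine, one-carbon, asparagine and proline synthesis, 9 were DEGs, all higher. Counting by the adjusted p alone, which 18.9% of all tested genes passed in either direction, 12 passed on the higher side and 2 on the lower (median log2 fold change 0.61). ASNS (ENSG00000070669, chromosome 7, 97851677 to 97872542), asparagine synthetase, stood at 1356, 1422 and 1329 normalised counts at the low dose and 4139, 4227 and 4324 at the medium dose (log2 fold change 1.63, SE 0.0396, adjusted p below the smallest number R can hold). PSAT1, the second enzyme of serine synthesis, stood at 1679, 1684 and 1659.6, then 4353, 4737 and 4415 (log2 fold change 1.43, SE 0.0415, adjusted p 2e-256). PHGDH, the first enzyme of that path, rose from 766 to 1441 (log2 fold change 0.91), while PSPH, the last, stood at 0.49, under the fold threshold (adjusted p 2.03e-08). The step was therefore uneven along the 3 enzymes of one path. In the transsulfuration path from homocysteine to cysteine, CBS rose from 190.3 to 543 (1.52) and CTH from 126 to 328 (1.38). In the mitochondrial one-carbon path, ALDH1L2 rose from 521 to 1289 (1.31) and MTHFD2 from 1956 to 3626 (0.89). The cytosolic enzyme MTHFD1 stood at -0.10 (adjusted p 0.0117). GPT2 (0.61), an alanine aminotransferase, and PYCR1 (0.59), of proline synthesis, rose by amounts close to 1.5-fold, with PYCR1 at 1709, 1931 and 1818, then 2619.6, 2786 and 2779.8. PYCR1 stood under 1.5-fold with the replicate number as a block (0.58) and when low dose replicate 1 or 3 or medium dose replicate 2 or 3 was left out (lowest 0.54), and GPT2 without low dose replicate 1 (0.58) or 3 (0.57).

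Amino acid transporters followed: 6 of 13 tested were DEGs, all higher (46.2%), with a median log2 fold change of 0.57. SLC7A5, the large neutral amino acid carrier, held 4355, 4221 and 3925 normalised counts, then 9118, 9717 and 9727 (log2 fold change 1.19, SE 0.0398, adjusted p 5.44e-194), and SLC3A2, the chain it pairs with, held 3270.2, 3314 and 2968, then 5424, 5232 and 5149.7 (log2 fold change 0.73, SE 0.0396, adjusted p 2.23e-72). SLC7A11, the cystine importer, rose from 2882 to 5530.2 (0.94). SLC6A9 (0.98), a glycine transporter, SLC1A4 (0.91), which carries serine and alanine, and SLC38A1 (0.83), which carries glutamine, also rose. Both chains of the SLC7A5 and SLC3A2 carrier thus moved the same way by different amounts. Lower values past the adjusted p were found for SLC7A8 (-0.43, adjusted p 0.0184) and SLC36A4 (-0.21, adjusted p 0.0101), both under the fold threshold.

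The cytosolic and mitochondrial lists of enzymes that charge tRNAs differed, with GARS1 counted in the cytosolic list alone. Of 20 cytosolic aminoacyl-tRNA synthetases, 6 were DEGs, all higher (30.0%), 12 passed the adjusted p on the higher side and 1 on the lower, with a median log2 fold change of 0.41. GARS1, for glycine, stood at 4598, 4819 and 4941 normalised counts, then 7874, 8381 and 8458 (log2 fold change 0.78, SE 0.0362, adjusted p 2.3e-101), and AARS1, for alanine, at 4501, 4627 and 4689, then 7651, 7693 and 7875 (log2 fold change 0.75, SE 0.0276, adjusted p 9.64e-160). WARS1 (0.67), SARS1 (0.65), YARS1 (0.65) and CARS1 (0.61) completed the 6. The synthetases for arginine (RARS1, -0.11, adjusted p 0.0286) and histidine (HARS1, -0.09, adjusted p 0.236) lay on the other side of 0. None of 17 genes in the mitochondrial list was a DEG, and 1, VARS2 (0.29), passed the adjusted p (median 0.04). In that list the largest value belonged to PARS2, for proline (0.31, adjusted p 0.0705).

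Secreted factors and regulators known as stress targets held 5 DEGs among 8 tested, all higher, and all 8 passed the adjusted p on the higher side (median log2 fold change 1.29). Beside GDF15, ADM2, CHAC1 and SESN2, DDIT4, an inhibitor of mTORC1, averaged 1869 and then 3844 normalised counts (log2 fold change 1.04, SE 0.0545, adjusted p 1.34e-78). VEGFA (0.40, adjusted p 2.64e-29), VLDLR (0.42, adjusted p 1.29e-06) and STC2 (0.39, adjusted p 2.29e-33) remained under 1.5-fold.

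Chaperones of the 2 main folding compartments moved in opposite directions. Among ER chaperones and ER-associated degradation genes, 16 of 20 passed the adjusted p on the higher side and none on the lower (median log2 fold change 0.25), with HERPUD1, ERN1 and HSPA5 as DEGs. Of all tested genes, 18.9% passed the adjusted p in either direction. HSPA5, the ER chaperone BiP, is among the most abundant transcripts and went from 83916, 85771 and 83953 normalised counts to 135401, 135585 and 131660 (log2 fold change 0.67, SE 0.0222, adjusted p 4.2e-195). HERPUD1, which helps remove misfolded ER proteins, went from 2057, 2248 and 2028 to 3883, 4016 and 3866 (log2 fold change 0.89, SE 0.0386, adjusted p 7.21e-116), and ERN1, which encodes the ER stress sensor IRE1, from 418 to 719 (0.78). Among 14 cytosolic heat shock chaperones, 13 passed the adjusted p on the lower side, none on the higher and none over 1.5-fold (median -0.24). The largest was HSPA1A, the inducible HSP70, at 2520.0, 2815 and 2833, then 1829, 1871 and 1978 (log2 fold change -0.52, SE 0.0510, adjusted p 1.08e-22), whose reads may be shared with its near-identical copy HSPA1B (-0.31). HSPA8, the constitutive HSP70, stood at -0.38 (adjusted p 7.26e-24), and CRYAB, the remaining member, at 0.40 (adjusted p 0.501). Mitochondrial chaperones and proteases held no DEG among 12 tested (median 0.08). There the protease LONP1 (0.51, adjusted p 5.61e-28) and the chaperone HSPA9 (0.46, adjusted p 1.2e-71) passed the adjusted p on the higher side under 1.5-fold, and the chaperonin HSPD1 stood at -0.08 (adjusted p 0.0143).

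**Figure D3:**
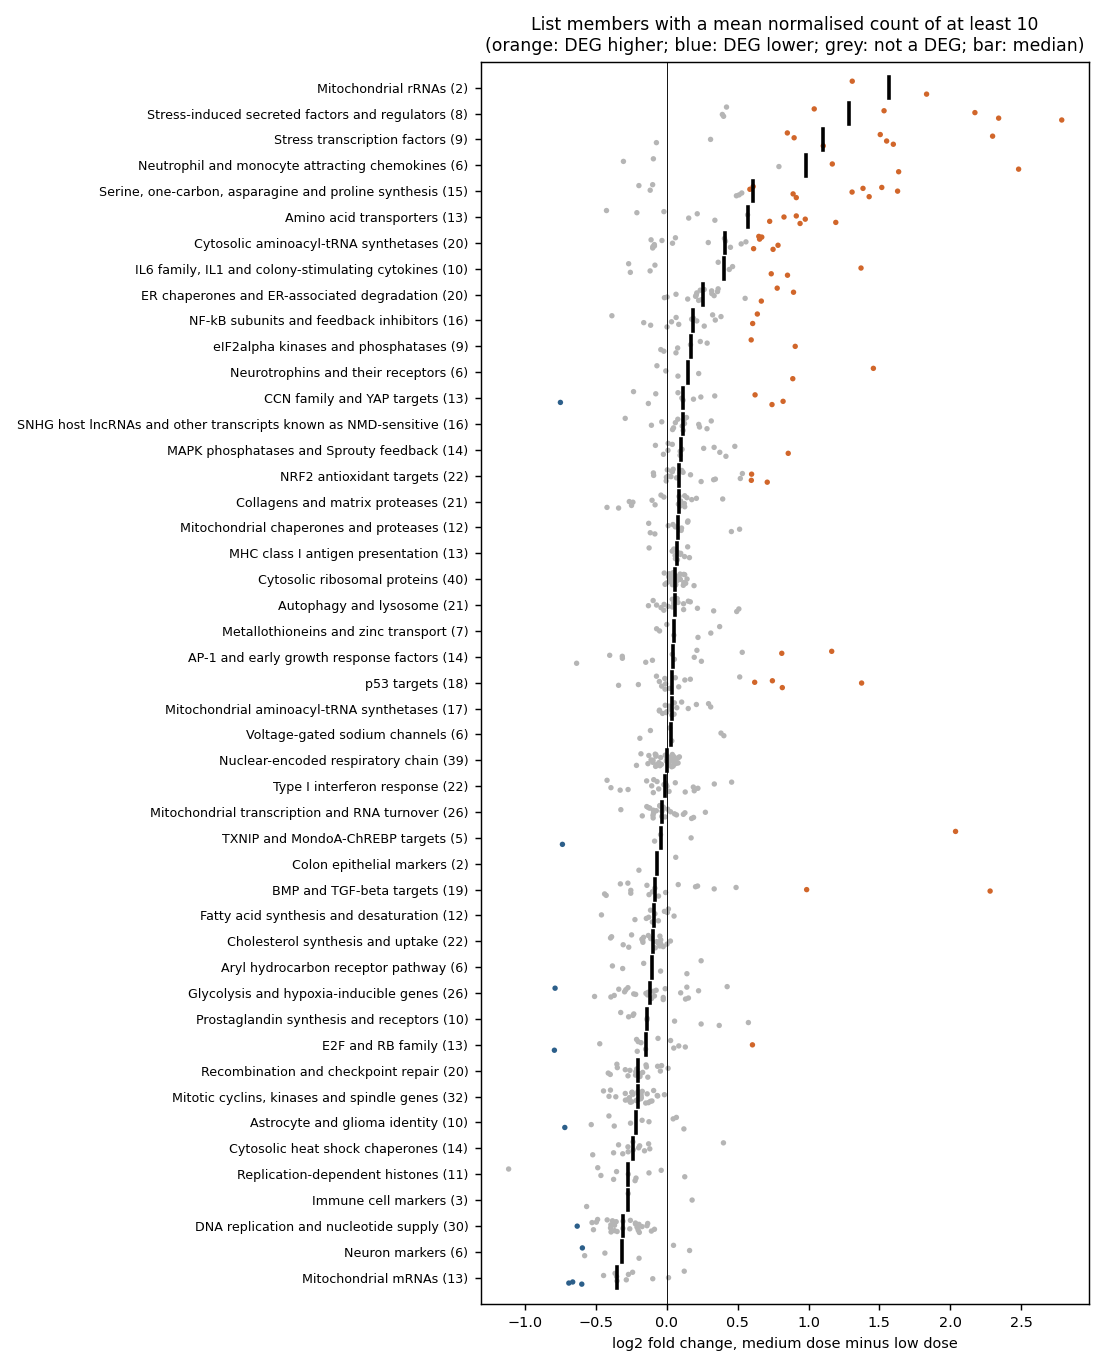
Log2 fold change from the low to the medium dose (x) of each list member averaging 10 normalised counts or more, one row a list with the number of members in parentheses. Orange and blue points are DEGs, grey points are not, and black bars are medians. Mitochondrial rRNAs, secreted stress factors and stress transcription factors are at the top with medians of 1.57, 1.29 and 1.10, and mitochondrial mRNAs at the bottom with -0.35.

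RNA encoded by the mitochondrial genome divided by class. The genome is copied into long transcripts that are cut into 2 rRNAs, tRNAs and the mRNAs of 13 protein genes, and the rRNAs come first on the heavy strand transcript. MT-RNR1 (ENSG00000211459, mitochondrial genome, 648 to 1601), the small rRNA, stood at 93082, 83664 and 81711 normalised counts at the low dose and 297552, 319246 and 303809 at the medium dose (log2 fold change 1.83, SE 0.0514, adjusted p 4.41e-275). MT-RNR2 (ENSG00000210082, mitochondrial genome, 1671 to 3229), the large rRNA, stood at 603399, 539868 and 558493, then 1399890, 1450730 and 1363670 (log2 fold change 1.31, SE 0.0463, adjusted p 3.52e-172); nuclear copies of it may share its reads. Together the rRNAs took 3.33%, 3.01% and 3.10% of all counts at the low dose and 7.76%, 8.05% and 7.67% at the medium dose. The means were 3.14% ± 0.164 and 7.83% ± 0.199 (SD, n = 3; exact permutation test, two-sided, p = 0.1, the smallest that 3 against 3 allow). Mitochondrial mRNAs together took 3.82% ± 0.397 and 2.83% ± 0.0580 (SD, n = 3; exact permutation test, two-sided, p = 0.1). Within mitochondrial counts alone, the rRNA share was 45.2% at the low and 73.5% at the medium dose. Whether polyadenylated RNA was selected is not stated, and these rRNA counts depend on that step.

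Of the 13 mitochondrial protein genes, 9 passed the adjusted p on the lower side and none on the higher, with a median log2 fold change of -0.35. MT-ND1, MT-ND2 and MT-ND3, subunits of respiratory complex I, were the DEGs. MT-ND2 (ENSG00000198763, mitochondrial genome, 4470 to 5511) held 110040, 71678 and 84675 normalised counts at the low and 54505, 55062 and 55389 at the medium dose (log2 fold change -0.69, SE 0.139, adjusted p 1.32e-05). MT-ND1 held 106804, 72133 and 81653, then 55342, 58968 and 57598 (log2 fold change -0.60, SE 0.137, adjusted p 0.000178). MT-ND3, the third, held 21224, 17431 and 22531, then 13992, 12162 and 12454 (log2 fold change -0.66, SE 0.123, adjusted p 1.55e-06). Low dose replicate 1 was the highest library for MT-ND1 and MT-ND2. Without it the log2 fold changes were -0.51 for MT-ND2 and -0.43 for MT-ND1, past the adjusted p but under 1.5-fold, leaving MT-ND3 as the 1 DEG of the 13, and MT-ND1 was also under it without medium dose replicate 1 (-0.58). MTND2P28, a nuclear copy of MT-ND2 that may share its reads, held 4061, 3282 and 3311, then 1977, 2610.4 and 2360.5 and likewise stood under 1.5-fold without low dose replicate 1 (-0.51) or medium dose replicate 1 (-0.51). At the other end of the genome, MT-ND5 (-0.10, adjusted p 0.221) and MT-CYB (0.12, adjusted p 0.116) did not pass the test. Nor did MT-ND6 (0.01, adjusted p 0.917), which lies between them on the opposite strand. MT-ATP8 (-0.24, adjusted p 0.412), in the middle of the genome, did not pass it either. MT-ATP6, which overlaps MT-ATP8, passed on the lower side (-0.37, adjusted p 0.0071). Nuclear genes around these transcripts gave few calls: 1 of 26 genes of mitochondrial transcription and RNA turnover passed the adjusted p higher and 2 lower, none over 1.5-fold, with FASTKD5 the largest (-0.32, adjusted p 0.0109). Of 39 nuclear-encoded respiratory chain genes, none was a DEG and 2 passed the adjusted p, both lower (median 0.000555); the largest value was -0.21 for NDUFB3 (adjusted p 0.193).

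**Figure D4:**
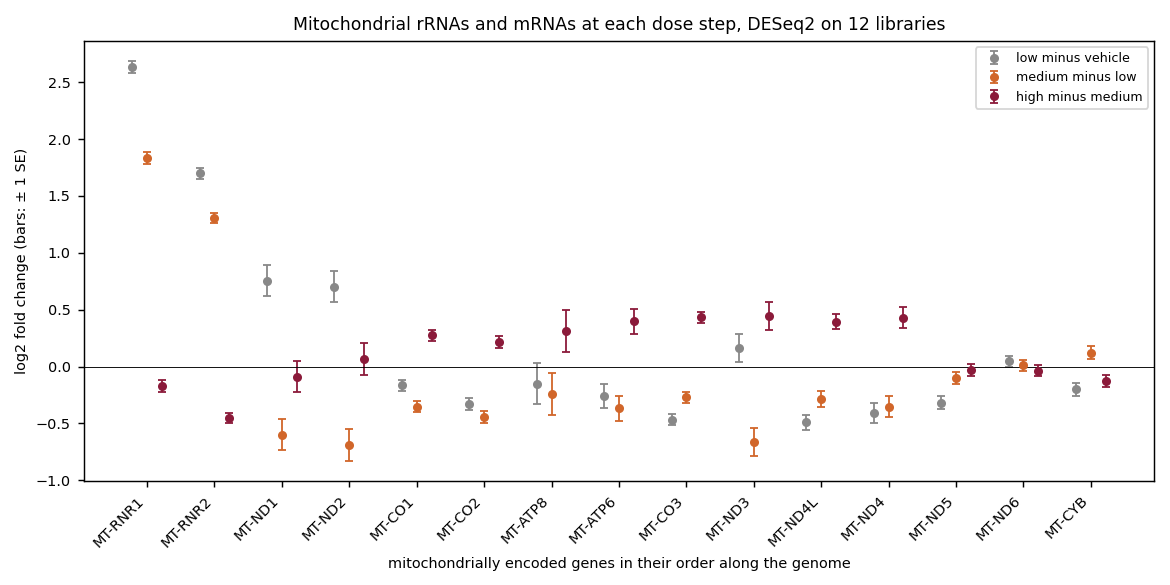
Log2 fold change with bars of 1 SE (y) for each mitochondrially encoded gene in map order (x), at the steps from vehicle to low (grey), low to medium (orange) and medium to high dose (dark red). In orange the 2 rRNAs stand at 1.83 and 1.31 and most mRNAs below 0, while MT-RNR1 and MT-RNR2 stand at -0.17 and -0.45 at the following step.

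In the inflammatory gene lists, 3 CXC chemokines and 3 cytokines rose, most of them at low abundance. CXCL8, which attracts neutrophils, stood at 89.5, 66.3 and 100.5 normalised counts, then 177, 219 and 177 (log2 fold change 1.17, SE 0.133, adjusted p 1.05e-16). CXCL3 stood at 6.73, 3.06 and 4.19, then 22.0, 28.9 and 27.3 (log2 fold change 2.48, SE 0.455, adjusted p 1.21e-06), and CXCL2, with which it can share reads, rose from 10.8 to 33.1 (1.64). These were the 3 DEGs among 6 tested chemokines (median 0.98). CXCL3 averaged under 18.3 over the 6 libraries and was tested because the abundance filter used the mean of all 12. Without low dose replicate 1 CXCL2 and CXCL3 had no adjusted p and CXCL8 was the 1 DEG. CCL2, which attracts monocytes, stood at -0.31 (adjusted p 0.0632). IL6 held 72.1, 75.5 and 108, then 189, 148 and 125 (log2 fold change 0.85, SE 0.161, adjusted p 2.77e-06), LIF, of the same family, held 465, 426 and 424, then 796, 759.5 and 641 (log2 fold change 0.74, SE 0.0795, adjusted p 1.44e-18), and IL1A rose from 13.9 to 35.7 (1.37) but had no adjusted p without low dose replicate 1. Together they were 3 of 11 tested in the IL6, IL1 and colony-stimulating list (median 0.40), in which IL11 passed the adjusted p on the lower side (-0.26). For IL6 the highest low dose library and the lowest medium dose library lay close together. Of 16 NF-κB subunits and feedback inhibitors, RELB (from 338 to 514, 0.61) and IER3 were DEGs (median 0.18). IER3 held 42.3, 25.5 and 31.4, then 51.0, 59.6 and 44.3 (log2 fold change 0.64, SE 0.236, adjusted p 0.0393), 38.9% of its exon bases lie opposite another gene, and with the replicate number as a block it lost its call (adjusted p 0.0750). It also lost it without medium dose replicate 1 or 2 (adjusted p 0.0813 and 0.227) or low dose replicate 2 or 3 (0.244 and 0.125). RELB stood under 1.5-fold without medium dose replicate 3 (0.58) or low dose replicate 3 (0.55), which left no NF-κB DEG in the last case.

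Prostaglandin synthesis and receptor genes held no DEG among 8 tested (median -0.14). PTGS2, the inducible cyclooxygenase COX-2, stood at 1369.7, 1240.3 and 1243, then 1581, 1551 and 1430.4 (log2 fold change 0.24, SE 0.0586, adjusted p 0.000489), and PTGES, which makes prostaglandin E2, at 0.58 (adjusted p 0.378). The receptors PTGER2 (-0.24), PTGER4 (-0.23) and PTGFR (-0.33) passed the adjusted p on the lower side. Type I interferon genes held no DEG among 21 tested (median -0.01), with 1 past the adjusted p higher, STAT2 (0.33), and 2 lower, IFI44 (-0.33) and IFI44L (-0.27); RSAD2, the largest value, had no adjusted p. MHC class I presentation genes held none among 13 (median 0.07), with HLA-B the largest (0.16, adjusted p 0.000781).

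Immediate early and oxidative stress genes were called singly rather than as groups. KLF4, a zinc finger transcription factor, held 118, 139.7 and 144 normalised counts, then 252, 306 and 339 (log2 fold change 1.16, SE 0.128, adjusted p 6.89e-18), and MAFF, a small bZIP factor, rose from 293 to 515 (0.81). Those were the 2 DEGs among 14 AP-1 and early growth response factors (median 0.05), while EGR1 (-0.31, adjusted p 0.0431) and JUNB (-0.31, adjusted p 0.00251) lay on the lower side. DUSP5, a phosphatase that switches off ERK, rose from 240.3 to 436 (log2 fold change 0.86, SE 0.0935, adjusted p 3.74e-18), the single DEG of 13 feedback genes (median 0.10). Of 22 NRF2 antioxidant targets, 3 were DEGs, all higher (median 0.09). HMOX1, heme oxygenase 1, held 1481, 1472 and 1412, then 2241, 2478 and 2407 (log2 fold change 0.71, SE 0.0473, adjusted p 2.94e-48), GCLC, of glutathione synthesis, rose from 692 to 1046 (0.60), and FTL, the ferritin light chain, from 23465 to 35517 (0.60). GCLC and FTL lay close to the fold threshold: without medium dose replicate 3 they stood at 0.56 and 0.55 and without low dose replicate 2 at 0.58 and 0.56, which left HMOX1 as the 1 DEG of the list, and GCLC also stood under it without low dose replicate 1 (0.55). The NRF2 target NQO1 stood at 0.24 (adjusted p 1.04e-10) and GCLM, the partner of GCLC, at -0.00439 (adjusted p 0.971). Of the aryl hydrocarbon receptor genes none of 6 was a DEG, and CYP1B1, its typical target, stood at -0.38 (adjusted p 3.53e-19). No metallothionein or zinc transport gene of 7 was a DEG either, with the zinc importer SLC39A14 the largest (0.37, adjusted p 1.36e-21).

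The largest falls under the same limits included VAV3, TCAF2, FAM13C, NDST3, FAM111B, RAB7B, RASL11A, LYPD1, ITGB8, EGLN3 and TMPO-AS1. VAV3 (ENSG00000134215, chromosome 1, 107571161 to 107965180), an exchange factor that activates small GTPases, stood at 313, 297 and 320.2 normalised counts at the low dose and 132, 116 and 116 at the medium dose (log2 fold change -1.36, SE 0.133, adjusted p 1.69e-22). It was also the 1 fall that passed a stricter Wald test of whether a change exceeded 1.5-fold. TCAF2 (ENSG00000170379, chromosome 7, 143620952 to 143730410), a partner of the channel TRPM8, went from 193, 201 and 195 to 95.0, 87.6 and 90.5 (log2 fold change -1.11, SE 0.153, adjusted p 1.93e-11). FAM13C (ENSG00000148541, chromosome 10, 59246130 to 59363181) went from 170.2, 187 and 198 to 82.3, 90.4 and 93.3 (log2 fold change -1.06, SE 0.171, adjusted p 2.29e-08), with 24.9% of its exon bases opposite another gene. NDST3 (ENSG00000164100, chromosome 4, 118033618 to 118258634), which modifies heparan sulfate, went from 148, 143 and 162 to 70.7, 74.6 and 79.2 (log2 fold change -1.01, SE 0.196, adjusted p 5.52e-06). For each of these 4 genes the medium dose level was under the low dose level by more than 2-fold. That every library lay on its own side was a condition of their choice.

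The next falls were smaller. RAB7B (ENSG00000276600, chromosome 1, 205976740 to 206003461), a GTPase of endosome traffic, held 608, 483 and 570.3, then 350.1, 291 and 263 (log2 fold change -0.88, SE 0.111, adjusted p 9.67e-14). ITGB8 (ENSG00000105855, chromosome 7, 20330702 to 20415754), the integrin chain that releases active TGF-β, held 1519.7, 1253 and 1327, then 851, 763 and 695 (log2 fold change -0.83, SE 0.0778, adjusted p 1.43e-24). Both separated fully by dose, as their choice required. FAM111B fell from 474 to 252 (-0.91), RASL11A, a Ras-like GTPase, from 185 to 102 (-0.87), and LYPD1, a Ly6 family membrane protein, from 658 to 365 (-0.85, 29.7% of exon bases opposite another gene). EGLN3, the oxygen-sensing prolyl hydroxylase PHD3, fell from 134 to 77.3 (-0.79), and TMPO-AS1, a lncRNA, from 129 to 74.3 (-0.79, 19.2% opposite another gene). Among other falls, chosen after their values were seen for their known roles, were the growth factors FGF7 (from 707 to 429.8, -0.72) and TGFB3 (from 379 to 225, -0.75), the chemokine CXCL12 (from 375 to 234, -0.68) and the Wnt-related ligand NDP (from 1089 to 687, -0.67).

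Many cell cycle genes passed the adjusted p on the lower side, nearly all of them under 1.5-fold. Of 30 DNA replication and nucleotide supply genes, 22 passed the adjusted p on the lower side and none on the higher (median log2 fold change -0.31), against 18.9% of all genes in either direction. ORC1, of the origin recognition complex, was the 1 DEG, at 322, 314 and 334 normalised counts, then 220.2, 208 and 199 (log2 fold change -0.63, SE 0.113, adjusted p 5.56e-07). RRM2 (-0.53), of ribonucleotide reductase, MCM10 (-0.52) and TYMS (-0.50), thymidylate synthase, came next. Of 32 mitotic genes, 25 passed on the lower side, none on the higher and none over 1.5-fold (median -0.20), with the proliferation marker MKI67 at 5340.1, 5248 and 5181, then 3925, 3758 and 3889.8 (log2 fold change -0.45, SE 0.0412, adjusted p 2.23e-25). Recombination and checkpoint repair genes passed on the lower side in 8 of 20 and in none on the higher (median -0.20), with the nuclease EXO1 at -0.41 (adjusted p 0.000997). In the E2F and RB family the repressor E2F7 rose from 2191 to 3329.6 (0.60, adjusted p 4.58e-62) and the activator E2F2 fell from 121 to 69.7 (-0.79, adjusted p 0.000464), while E2F8, the relative of E2F7, stood at -0.47 (adjusted p 0.0118). Outside the lists, and chosen after the values were seen, CCNE2, cyclin E2, fell from 589 to 375 (-0.66), and CDKN2C, an inhibitor of the cyclin D kinases, from 1878 to 1137 (-0.72). CCNE2 stood under 1.5-fold without medium dose replicate 3 (-0.57). None of 6 tested replication-dependent histone genes passed the adjusted p (median -0.27); H4C8, the largest value at -1.12, had no adjusted p in DESeq2.

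Energy and lipid metabolism changed in small steps. The counts that follow stand beside the 18.9% of all tested genes that passed the adjusted p in either direction. Of 26 glycolysis and hypoxia-inducible genes, 14 passed the adjusted p on the lower side and 3 on the higher (median -0.12), with EGLN3 the DEG. LDHA, lactate dehydrogenase, stood at -0.30 (adjusted p 5.75e-31), PFKFB4, a regulator of glycolytic flux, at -0.51 (adjusted p 1.37e-08), and NDRG1, on the higher side, at 0.43 (adjusted p 9.68e-13). In the list around TXNIP, HKDC1 rose as described, and TXNIP, which restrains glucose uptake, held 82.7, 96.9 and 83.7, then 62.6, 56.8 and 39.6 (log2 fold change -0.74, SE 0.209, adjusted p 0.00388). The 2 DEGs of 5 thus lay on opposite sides, TXNIP losing its call without medium dose replicate 3 (adjusted p 0.0885), and ARRDC4, the closest relative of TXNIP in that list, stood at -0.09 (adjusted p 0.805). Cholesterol synthesis and uptake genes passed on the lower side in 9 of 21, none on the higher and none over 1.5-fold (median -0.10). Fatty acid genes did so in 5 of 12 (median -0.09), led by the desaturase FADS2 (-0.46, adjusted p 4.96e-13). Autophagy and lysosome genes passed on the higher side in 8 of 21, none on the lower and none over 1.5-fold (median 0.06), with WIPI1 (0.51) and the cargo receptor SQSTM1 (0.49) the largest.

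Ribosomal protein genes and a list of transcripts known to be degraded when translated gave no DEG. Cytosolic ribosomal proteins held no DEG among 40 tested, with 6 past the adjusted p on the higher side (median 0.06) and RPL3 the largest (0.19, adjusted p 3.51e-14). The SNHG list held none among 16 (median 0.11), with 3 higher and 1 lower past the adjusted p, led by GAS5 (0.31, adjusted p 1.75e-06).

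Of 18 p53 targets, 4 were DEGs, all higher, with a median of 0.04. TNFRSF10B, the death receptor DR5, stood at 1205, 1239 and 1247, then 2048, 2075 and 2059.9 normalised counts (log2 fold change 0.74, SE 0.0436, adjusted p 7.26e-63), and GADD45A, of DNA damage signalling, at 789, 875 and 772, then 1466, 1369 and 1452 (log2 fold change 0.81, SE 0.0583, adjusted p 4.47e-42). PMAIP1 (from 929 to 1426, 0.62) and BBC3 (from 9.05 to 23.6, 1.37), both promoters of apoptosis, were the others, PMAIP1 standing under 1.5-fold without medium dose replicate 3 (0.58). BBC3 was counted at few reads and lost its call without medium dose replicate 1 (adjusted p 0.0509) or low dose replicate 3 (adjusted p 0.0548). It had no adjusted p without low dose replicate 1. BBC3 averaged under 18.3 over the 6 libraries and was tested because the abundance filter used the mean of all 12. The 4 DEGs are known targets of stress factors other than p53 too, and which factor moved them was not tested. The cell cycle inhibitor CDKN1A (-0.01, adjusted p 0.951) and MDM2 (0.02, adjusted p 0.892), the most typical p53 targets, did not pass the test. BCL2L11, which encodes the apoptosis promoter BIM, fell from 190.0 to 123 (log2 fold change -0.62, SE 0.143, adjusted p 0.0002) and stood under 1.5-fold without medium dose replicate 3 (-0.55).

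BMP and TGF-β genes held 2 DEGs among 19 tested, both higher (median -0.08). KCP, a secreted BMP modulator, stood at 7.69, 11.2 and 18.8, then 64.9, 46.6 and 70.7 normalised counts (log2 fold change 2.28, SE 0.306, adjusted p 4.63e-12), with 16.4% of its exon bases opposite another gene, and GREM1, a BMP antagonist, at 314, 319 and 348, then 662, 623 and 659.6 (log2 fold change 0.99, SE 0.0782, adjusted p 2.78e-34). The response genes ID2 (-0.43, adjusted p 2.68e-05) and ID3 (-0.13, adjusted p 0.0398) lay on the lower side, under 1.5-fold. Of 13 CCN and YAP genes, CCN1 (from 5533 to 9255, 0.74), ANKRD1 (from 268 to 474, 0.82) and F3, tissue factor (from 2727 to 4196, 0.62), rose and CCN4 fell, so the family was split (median 0.11). CCN4, a matricellular Wnt target, held 256, 252 and 231, then 146, 158 and 135 (log2 fold change -0.75, SE 0.139, adjusted p 1.67e-06). Collagens and matrix proteases held no DEG among 20, with 6 past the adjusted p higher and 7 lower (median 0.09), and the fibrillar collagen COL3A1 was the largest (-0.42, adjusted p 5.41e-07).

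Nervous system genes were called in both directions. The list of protein names used here for the study's brain system network, compiled without these samples, holds 1039 genes, of which 458 were tested. Of those, 9 were higher and 9 lower DEGs, 3.93% against 1.94% of all tested genes, with a median log2 fold change of -0.04. Over all genes the DEG share itself varied with abundance. It was 4.14% of tested genes averaging 30 to 100 normalised counts and 1.17% of those averaging 300 to 1000. The network share was not matched for abundance. The rises were in RAB39B, SLC7A11, HTR1D, a serotonin receptor (from 37.9 to 71.5, 0.92), ITPKA, an inositol kinase (from 96.2 to 238), SCG5, a neuroendocrine chaperone (from 89.3 to 143, 0.67), SYT7, a synaptotagmin (from 197 to 303, 0.62), AK5, BEST1 and CAMTA2. The falls were in MT-ND2, SLC1A3, NEFL, ADORA1, an adenosine receptor (from 97.8 to 64.5, -0.61), HTR2A, another serotonin receptor (from 156 to 104, -0.60), GABRQ, a GABA receptor subunit (from 61.8 to 36.4, -0.78), CDH10, ANK2 and APLN. Both serotonin receptors were thus counted at low levels and moved opposite ways. Many of these calls changed with a library left out: the list held 11 DEGs in place of 18 without medium dose replicate 3, and 11 without low dose replicate 1. In the latter fit ADORA1 (-0.64), ANK2 (-0.76), APLN (-0.91), CDH10 (-1.12), GABRQ (-0.75) and HTR1D (0.89) had no adjusted p. HTR2A (adjusted p 0.0502) and NEFL (0.0524) did not pass it there, and MT-ND2 stood under 1.5-fold (-0.51). With the replicate number as a block, ADORA1 (adjusted p 0.0799), ANK2 (0.0551), APLN (0.0675), GABRQ (0.0752) and NEFL (0.0588) lost their calls, and CDH10 had no adjusted p. Of the docking core proteins of the study, CHRM1 had 0 counts in all 12 libraries, RPE65, CHRM4, CACNA1B and CACNA1E had at most 6, 5, 1 and 1 in any, and GRIK4, a kainate receptor subunit, had 11 to 23 in the 6 libraries, too few for an adjusted p.

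SLC1A3 (ENSG00000079215, chromosome 5, 36596588 to 36688334), the astrocyte glutamate transporter, was the 1 DEG among 10 tested astrocyte and glioma genes, at 579, 554 and 641 normalised counts, then 358, 377 and 341 (log2 fold change -0.72, SE 0.0898, adjusted p 5.87e-14). In that list 6 passed the adjusted p on the lower side, among them the stem cell filament NES (-0.53) and PDGFRA (-0.41), and VIM alone on the higher (0.12) (median -0.22). Of 5 neuron markers, NEFL, a neurofilament, fell from 109 to 71.7 (log2 fold change -0.60, SE 0.203, adjusted p 0.0222), with 19.8% of its exon bases opposite another gene, and its call was also lost without medium dose replicate 1 or 2 (adjusted p 0.138 and 0.121) or low dose replicate 1 or 2 (0.0524 and 0.133). SNAP25 (-0.58, adjusted p 5.21e-09) and TUBB3 (-0.44, adjusted p 6.77e-13) passed the adjusted p under 1.5-fold, SNAP25 exceeding it without medium dose replicate 1 (-0.62) or low dose replicate 2 (-0.59) or 3 (-0.63). In the neurotrophin list NGFR rose from 31.1 to 85.7 (log2 fold change 1.46, SE 0.206, adjusted p 6.02e-11), with 27.2% opposite another gene, in a list that held 2 DEGs among 6 tested (median 0.15). None of 5 tested sodium channel genes passed the adjusted p (median 0.03), with SCN8A the largest (0.40, adjusted p 0.0746). Markers of other cells gave no DEG: PTPRC, the leukocyte antigen CD45, stood at -0.57 (adjusted p 0.00051), exceeding 1.5-fold without medium dose replicate 1 (-0.62) or 3 (-0.60) or low dose replicate 3 (-0.59), CD68 at 0.18, and the keratins KRT18 and KRT8 at -0.20 and 0.06, while CD14 reached at most 7 counts and CD3E, MS4A1 and NKG7 0.

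The step was then set against its neighbours within the same fit. The change from low to medium was compared with that from medium to high, which spans the same ratio of concentrations, by testing the difference of the 2 log2 changes. That difference was called for 558 of 13484 genes (4.14%), 324 positive and 234 negative. The 2 changes share the medium dose libraries, so noise in those enters both with opposite sign.

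Among DEGs at that level of abundance, the positive differences were largest in CHAC1, MT-RNR1, MT-RNR2, CCN4 and KRT81. CHAC1 averaged 84.0 with vehicle, 135 at the low, 611 at the medium and 640.0 at the high dose. Its log2 change was 2.17 at this step and 0.07 at the next, a difference of 2.11 (SE 0.177, adjusted p 2.51e-30). MT-RNR1 averaged 13848 with vehicle, 86152 at the low, 306869 at the medium and 273099 at the high dose, with a difference of 2.00 (SE 0.0889, adjusted p 1.14e-108). Both had thus reached by 100 µg/mL about the level they held at 500 µg/mL. MT-RNR2 changed by 1.31 and then -0.45, and KRT81, a keratin with a near-identical copy in KRT86, averaged 2591 with vehicle, 3003 at the low, 4765 at the medium and 2680.4 at the high dose, a peak at the medium dose (difference 1.49, SE 0.0744, adjusted p 9.7e-87). CCN4 was positive because a change of -0.75 was followed by one of -2.38. By list, called positive differences numbered 5 of 15 in amino acid synthesis (median change 0.61 here and 0.33 at the next step), 4 of 8 in secreted stress factors (1.29 and 0.43) and 9 of 19 in BMP and TGF-β genes (-0.08 and -0.50), with none negative in these 3.

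Negative differences, where the following step was the higher, were largest in CXCL8, PLIN2, IL6, HMOX1 and BCL2L11. CXCL8 averaged 101 with vehicle, 85.4 at the low, 191 at the medium and 2168 at the high dose, with log2 changes of 1.17 and 3.50 and a difference of -2.33 (SE 0.201, adjusted p 1.34e-28). PLIN2, a lipid droplet coat protein, averaged 1414 with vehicle, 1470.2 at the low, 2245 at the medium and 12394 at the high dose (difference -1.85, SE 0.0719, adjusted p 1.11e-142). IL6 averaged 79.2 with vehicle, 85.1 at the low, 154 at the medium and 887 at the high dose (difference -1.68, SE 0.258, adjusted p 3.05e-09). For these genes most of the rise over vehicle lay above the medium dose. HMOX1 changed by 0.71 and then 2.38 (difference -1.67, SE 0.0782, adjusted p 8.71e-98), and BCL2L11 by -0.62 and then 1.01 (difference -1.63, SE 0.250, adjusted p 3.28e-09). Called negative differences numbered 8 of 13 mitochondrial protein genes (median change -0.35 here and 0.27 at the next step) and 8 of 20 cholesterol genes (-0.10 and 0.44). They also numbered 7 of 16 NF-κB genes (0.18 and 0.56) and 5 of 17 p53 targets (0.04 and 0.47), with none positive in these 4 lists.

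The step from vehicle to low dose shares the low dose libraries, and any change of diluent in it cannot be told apart from the extract. Against that step 110 of 11096 genes differed (0.991%), 91 positive and 19 negative. The negative ones numbered 12 without low dose replicate 3. The positive differences were largest in GDF15, TRIB3, HKDC1, CLDN1 and CTH. GDF15 changed by 0.94 at the first step and 2.79 at this one, a difference of 1.84 (SE 0.181, adjusted p 1.18e-21). CLDN1 averaged 103 with vehicle, 109 at the low, 335 at the medium and 1303 at the high dose (difference 1.55, SE 0.234, adjusted p 5.14e-09), and CTH 137 with vehicle, 126 at the low, 328 at the medium and 774 at the high dose (difference 1.51, SE 0.217, adjusted p 6.86e-10). In CLDN1 and CTH the vehicle and low dose means were close, and the rise began at the medium dose. TRIB3 changed by 0.54 and then 2.30 (difference 1.76, SE 0.104, adjusted p 4.57e-61), and HKDC1 by 0.44 and then 2.04 (difference 1.60, SE 0.295, adjusted p 5.79e-06). By list, positive differences numbered 7 of 15 in amino acid synthesis, 6 of 12 amino acid transporters, 6 of 9 stress transcription factors and 5 of 8 secreted factors, with none negative in these 4. Negative differences were largest in MT-ND2, MT-ND1, FAM13C, MTND2P28 and VAV3. MT-ND2 averaged 54532 with vehicle, 88798 at the low, 54985 at the medium and 57508 at the high dose, a difference of -1.39 (SE 0.241, adjusted p 7.96e-07), and MT-ND1 changed by 0.75 and then -0.60 (difference -1.36, SE 0.237, adjusted p 1.2e-06). Without low dose replicate 1 the difference for MT-ND2 was -1.03 (adjusted p 1.87e-09), and that for MT-ND1 kept its call (adjusted p 1.84e-08). FAM13C had no adjusted p for it with the replicate number as a block or when medium dose replicate 2 or 3 or a single low dose library was left out, nor had VAV3 under the block or without low dose replicate 1 or 3. FAM13C changed by 0.16 and then -1.06 (difference -1.22, SE 0.283, adjusted p 0.000856), and VAV3 averaged 387 with vehicle, 309.9 at the low, 122 at the medium and 29.1 at the high dose, a difference of -1.03 (SE 0.213, adjusted p 8.36e-05). MT-RNR1 was called too, its rise of 1.83 following a larger one of 2.64 (difference -0.80, SE 0.0893, adjusted p 8.38e-17).

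**Figure D5:**
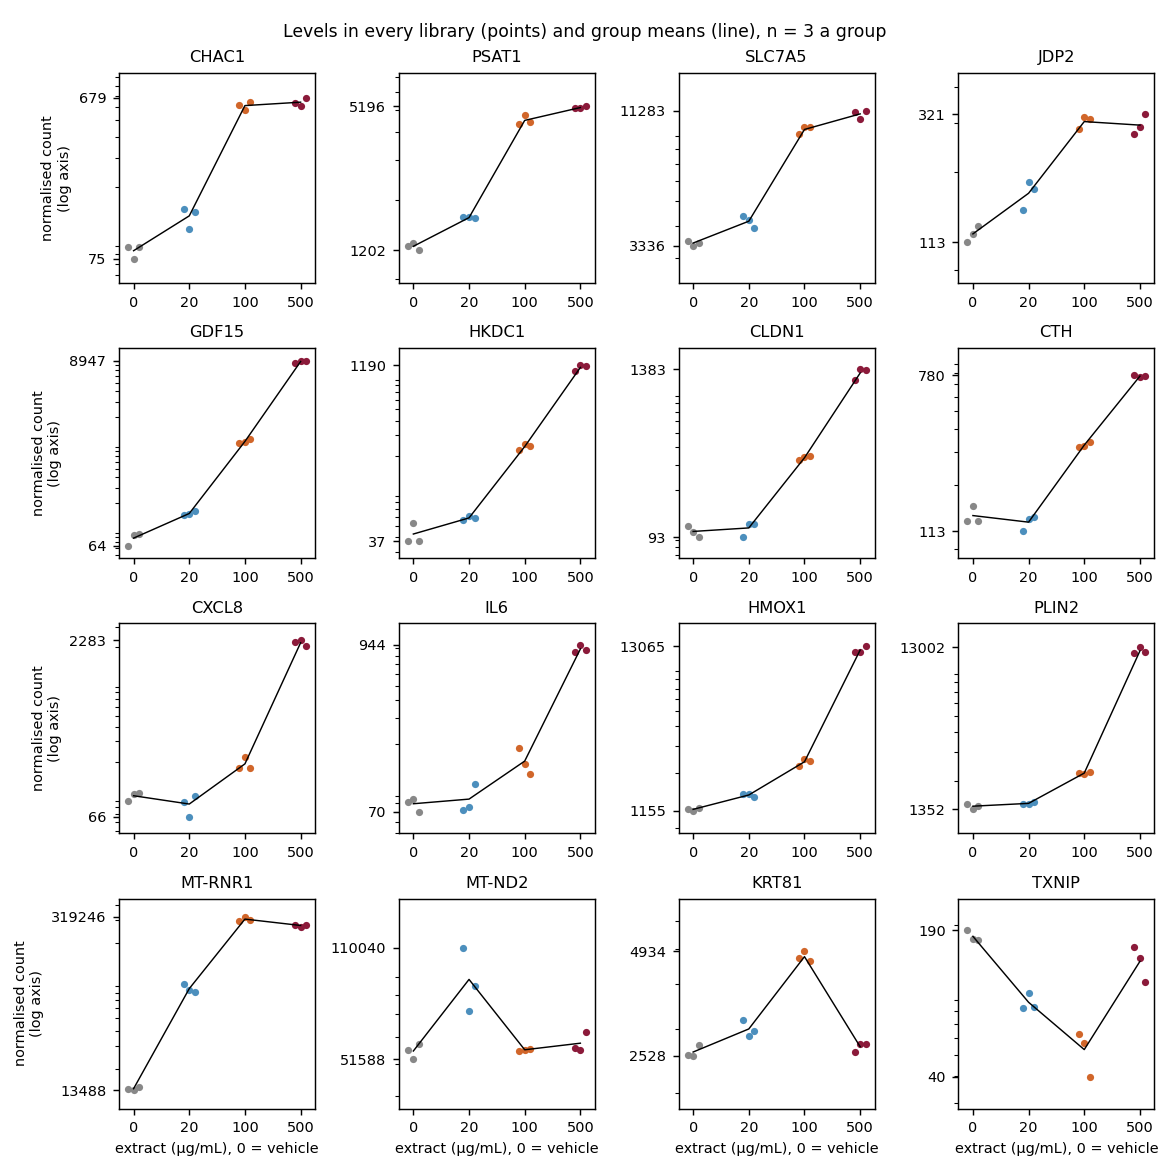
Normalised counts (y, log axis, ticks at the lowest and highest library) of 16 genes in every library of the 4 groups (x, extract in µg/mL, 0 for vehicle), with lines through the group means of n = 3. CHAC1, PSAT1, SLC7A5, JDP2 and MT-RNR1 make most of their rise by 100 µg/mL, CXCL8, IL6, HMOX1 and PLIN2 make most of theirs at 500 µg/mL, KRT81 is highest at 100 µg/mL, and TXNIP is lowest there.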

How the data were processed

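RNA-seq was analysed in 12 SW1783 libraries, 3 in each of 4 groups, with group taken from GEO's labels. The authors deposited RSEM expected counts per Ensembl gene, made, per the submitters' processing notes, with FastQC 0.11.9, Trim Galore 0.6.5, STAR 2.7.3a and RSEM 1.3.3 on GRCh38. Use of strand in counting is not given in the sources used here. Expected counts were rounded to whole numbers (8.75% of values were not whole). Of 60675 gene IDs, 56558 (93.2%) matched GENCODE v44, which gave symbols, positions, biotypes and the percentage of exon bases opposite another gene, printed where it is above 10%.

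DESeq2 1.42.0 in R 4.3.3 was fitted to all 12 libraries with group as the one term, so that all groups shared an estimate of spread. Genes were called DEGs at a Wald test p, adjusted after Benjamini and Hochberg, under 0.05 together with a fold change over 1.5. Independent filtering left genes averaging under 18.3 normalised counts over the 12 libraries without an adjusted p (25.6 and 109 for the differences from the next and the previous step). Libraries outside the comparison could therefore decide whether a gene of low abundance was tested. Mitochondrial shares were compared by exact permutation. The fits were tested on simulated counts. edgeR 4.0.16 served as an alternative.

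Genes were named by rule: the 12 largest rises and 12 largest falls among DEGs averaging 100 or more over the 6 libraries without overlap between doses, the 5 largest differences each way against each neighbouring step, the largest change in each of 48 gene lists among genes averaging 10 or more, and 8 fixed names. Some genes that the rule or the lists hold are not reported here. Others named are list members, or are said to have been chosen after their values were seen. The comparison and the lists were chosen with earlier results of these data known, and the brain system network was taken from the study's protein names.

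Chi-square values per degree of freedom between replicates of a dose were 2.02 to 3.55, so no library was a copy of another. Deviations from the group mean in same-numbered medium and low dose libraries correlated at 0.169, 0.131 and 0.248, against -0.182 to 0.0125 for differently numbered ones, so the replicate numbers were taken to pair the samples and the block on them was tried. Other alternatives were the 6 libraries alone, TMM factors, a low-count filter, other filtering, mitochondrial genes left out, other call rules and each library left out in turn.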

Additional observations from a re-analysis of the deposited data

How the results depend on the processing

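The 273 DEGs numbered between 225 and 292 with the 6 libraries alone, TMM factors, mitochondrial genes left out, a low-count filter, filtering at 0.1 or none. edgeR called 427, 148 of them lower, and these held 270 of the 273; the cause was not tested. By the adjusted p alone there were 2657 (1308 higher, 1349 lower), and 2201 and 539 differences from the next and the previous step. A stricter test, of whether the change exceeded 1.5-fold, left 68 DEGs (67 higher, 1 lower) and 77 and 15 step differences. Without 1 library at a time the DEGs numbered 185 to 265, the rises 136 to 194 and the falls 49 to 71, the lowest of each without low dose replicate 1. In that fit many of the lost genes had no adjusted p. With the replicate number as a block, pairing the libraries, there were 235 DEGs, 233 of them among the 273, and 473 and 87 step differences. Of the genes described, IER3, NEFL, PYCR1, ADORA1, ANK2, APLN, GABRQ, CDH10 and KLHDC7B were not DEGs under the block, which changed no other call between the doses among them. CDH10 and KLHDC7B had no adjusted p there. As a share of mitochondrial rather than all counts, the rRNAs differed by 28.2 percentage points and the mRNAs by -28.2, since the 2 classes make up nearly all of that total. Over 80 named genes, 1095 of 1164 alternative values stayed on their side of the thresholds, 49 lost a call, 20 gained one and 0 changed sign with a call. Over 26 lists with a DEG, 61 of 416 counts moved by more than 1.5 times. Changes of less than 1.5-fold were measurable in abundant genes and mostly not in genes averaging 10 to 100 normalised counts.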
